A study of Mus musculus with 15 samples.

Results

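Genes for helix-loop-helix repressors were followed over the circadian day in mouse liver, 5 in number. They were the DEC genes Bhlhe40 (DEC1) and Bhlhe41 (DEC2) and the ID genes Id1, Id2 and Id3. Members were chosen by symbol, which gave 6 of the 28167 RefSeq transcripts counted and 5 of the 20101 symbols that these matched. Bhlhe41 has 2 of the transcripts, NM_024469 and NM_001271768, and the other genes have 1 each (NM_011498 for Bhlhe40, NM_010495 for Id1, NM_010496 for Id2 and NM_008321 for Id3).

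The measurement was ribosome profiling, in which the stretches of mRNA that ribosomes cover are sequenced and each such read, or footprint, is counted. Livers came from wild-type male C57BL/6N mice, 8 to 10 weeks of age, kept under 12 h of light and 12 h of darkness. By the study's methods, killing began 24 h after a move to constant darkness and went on every 4 h over a day. Livers of later times had thus been in darkness for longer. Whole liver was taken from 2 mice at each of 7 circadian times, from CT0 to CT24 in steps of 4 h, which gave 14 libraries, and the labels name no mutation and no agent. Footprint reads of a gene follow both the amount of its mRNA and how densely ribosomes load it, and these cannot be told apart here, nor can fewer cells of a type and less RNA per cell.

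DEC proteins are basic helix-loop-helix repressors with an Orange domain. They bind E-box DNA, the element that the clock activators CLOCK and BMAL1 use, and so oppose those activators at clock genes. ID proteins have the helix-loop-helix part but lack the basic region that touches DNA. They pair with E proteins and keep these from binding DNA, and in liver Id1 in particular is a well-known target of bone morphogenetic protein (BMP) signalling through SMAD factors.

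The libraries held from 40593197 to 90458783 counts in total (median 56446208). CT16 replicate 2 stood apart, since 100% of its nonzero counts were even, where the share elsewhere was 48.9% to 50.4%. The labels list another sequencing run of that liver and place its processed data in the file of the first run. Whether any reads were counted more than once was not tested. Hepatocyte markers (6 genes, Alb among them) summed to between 34513 and 48774 CPM (counts per 1000000 of the library total, TMM-scaled as explained below) in every library. Sinusoidal endothelial markers (8 genes) summed to between 121 and 199, lowest in CT16 replicate 2, and Kupffer cell markers (6 genes) to between 62.8 and 116. Stellate cell markers summed to between 102 and 153, cholangiocyte markers to between 11.03 and 24.3, lymphocyte markers to between 2.15 and 5.49 and erythroid markers to between 53.1 and 112. On the erythroid list, Hbb-bs and Hbb-b1 had identical values in every library, and the sum holds both. No marker found in the files was at 0 in all 14 libraries. Pancreatic acinar markers (5 of 6 genes found) summed to between 2.51 and 2513, highest in CT20 replicate 2.

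The genes lie on chr6, chr2, chr12 and chr4 of GRCm38.p6, the build that matches the mm10 of the files. Bhlhe40 spans chr6:108660629-108666925 on the plus strand with 5 exons, and Bhlhe41 spans chr6:145858243-145865420 on the minus strand with 5 exons. Id1 spans chr2:152736251-152737410 (plus strand, 2 exons), Id2 chr12:25093799-25096092 (minus strand, 3 exons) and Id3 chr4:136143822-136145392 (plus strand, 3 exons). The bases around each annotated start codon are shown because they mark the border between the 5′UTR and the coding sequence (CDS), in which reads were counted separately. They are read 5′ to 3′ from the genome, with the start codon in capitals, and all lie in exons.
Bhlhe40, chr6:108660904-108660918: cgccgcatcATGgaa
Bhlhe41, chr6:145865262-145865276: ccattgaacATGgac
Id1, chr2:152736332-152736346: ctcaggatcATGaag
Id2, chr12:25096005-25096019: acgagcagcATGaaa
Id3, chr4:136143870-136143884: ctctccaacATGaag

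Bhlhe40 also holds 1 upstream ATG, 190 bases before its start codon, which opens a reading frame of 5 codons that ends 172 bases before the CDS. It is printed because no other member transcript has an ATG in its annotated 5′UTR.
Bhlhe40 upstream ATG, chr6:108660714-108660728: cacccggccATGcac

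RefSeq promoter sequences of GRCm38.p6, from 250 bases before to 50 bases after a gene's start, were at hand for 3 of the 5 members (Bhlhe41, Id2 and Id3). Each was searched on both strands for the E-box CACGTG, the site of the clock activators and of DEC proteins, and for GGCGCC, a GC-rich sequence known to bind SMAD factors. Both words read the same on either strand. The related E-box form CACGTT, searched likewise, was in none of the 3 and in 4.68% of all promoters. The Bhlhe41 promoter held 1 E-box, 153 bases before the start, and no GGCGCC. The Id2 promoter held 1 GGCGCC, 231 bases before the start, and no E-box. The Id3 promoter held neither. Of 32851 promoters of this length, 7.15% held CACGTG and 11.9% held GGCGCC. The matches are printed with the motif in capitals.
Bhlhe41 E-box, chr6:145865556-145865585, minus strand: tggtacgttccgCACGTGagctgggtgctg
Id2 GGCGCC, chr12:25096306-25096335, minus strand: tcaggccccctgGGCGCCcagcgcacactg

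Footprints of both DEC genes cycled over the day, and those of the 3 ID genes did not pass the test. A cosine with a period of 24 h was fitted to the reads of each transcript with edgeR's quasi-likelihood test, and p-values were adjusted over all 17299 transcripts that averaged 10 or more reads per library, which took in all 6 member transcripts. Of the transcripts tested, 11.3% were called at an adjusted p under 0.05. Among the members, 2 of 5 genes were called, and these calls were the same without CT16 replicate 2, the library of even counts (2.22 log2 units from trough to peak for Bhlhe40 and 4.02 for Bhlhe41). Levels are CPM summed over the 5′UTR, CDS and 3′UTR and scaled by TMM, a scaling that aligns the bulk of transcripts between libraries.

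**Figure D1:**
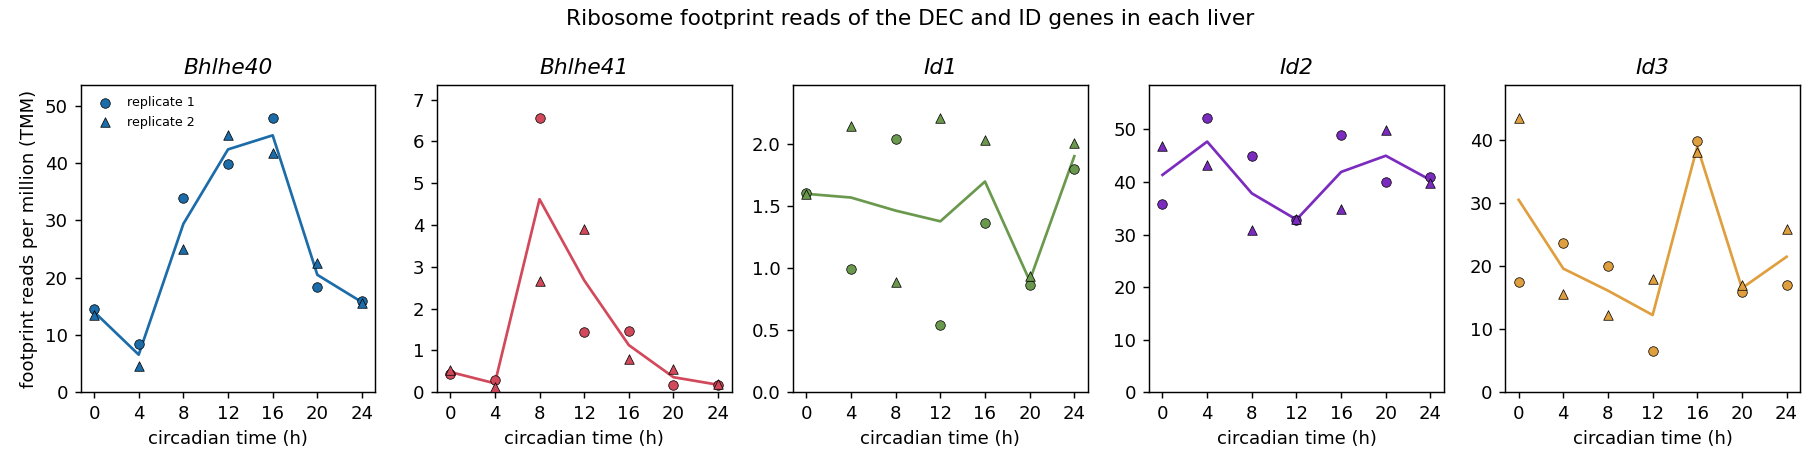
Footprint level in CPM (TMM-scaled, vertical axis, from 0) against circadian time in hours for each gene, with circles and triangles for the 2 livers of a time point and a line through their means. Bhlhe40 rises to its highest means at CT12 and CT16 and Bhlhe41 to its highest at CT8, while the livers of Id1 and Id3 are far apart at several times.

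Bhlhe40 was at 14.5 and 13.5 CPM in the livers of CT0, 8.44 and 4.66 at CT4, and 33.8 and 24.9 at CT8. It stood at 39.8 and 44.9 CPM at CT12, 47.9 and 41.8 at CT16, 18.4 and 22.5 at CT20, and 15.9 and 15.5 at CT24. The 6 libraries of CT8, CT12 and CT16 were all above the other 8, and the 2 of CT4 were below all others. The fitted cosine spanned 2.17 log2 units from trough to peak, or 4.49-fold, and peaked at CT14.1 (adjusted p = 0.00014, edgeR). A least-squares cosine on log2 CPM gave a difference of 2.25 ± 0.37 (SE) and a peak at 14.3 ± 0.648 h (SE, n = 14). Fitted on their own, the 7 livers numbered 1 peaked at 13.8 h and the 7 numbered 2 at 14.8 h.

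Bhlhe41 had far fewer reads, 93.6 per library against 1530 for Bhlhe40. Its level was 0.439 and 0.531 CPM at CT0, 0.294 and 0.133 at CT4, and 6.57 and 2.67 at CT8. It was 1.44 and 3.91 CPM at CT12, 1.46 and 0.797 at CT16, 0.167 and 0.552 at CT20, and 0.163 and 0.194 at CT24. All 6 libraries of CT8 to CT16 again lay above the other 8, and the livers of CT8 differed from each other, as did those of CT12. In reads, the lowest libraries held 7 (CT4 replicate 2 and CT20 replicate 1) and the highest 525 (CT8 replicate 1). The fitted cosine spanned 3.97 log2 units, or 15.6-fold, and peaked at CT10.6 (adjusted p = 0.000563, edgeR). The least-squares fit, which adds 0.5 to each CPM before the logarithm and so understates changes of low values, gave 2.41 ± 0.50 (SE) and a peak at 10.8 ± 0.866 h (SE, n = 14).

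JTK_CYCLE, the rank test that the study's methods name, was run on the CPM of the whole transcript without TMM. Its p was adjusted for the phases tried within a transcript and not over transcripts, unlike that of edgeR. By this p, 22.2% of the 17299 transcripts tested were under 0.05. Bhlhe40 passed the test, with a p from the exact null distribution, adjusted in this way, of 0.00046 and a peak at CT16. Bhlhe41 did not (exact p, adjusted, of 0.126, peak at CT12), and with TMM scaling it did (0.0439, peak at CT14). The share of all transcripts under 0.05 with TMM is not given, so the change in its call cannot be set beside that share.

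The balance between the DEC genes shifted over the day. The ratio was taken after scaling reads to a common depth (TMM) and adding 0.5 to both, which lowers it most where Bhlhe41 has few reads. So computed, Bhlhe40 was at 28.6 times Bhlhe41 at CT0, as the mean of the log ratio over both livers, 30.4 times at CT4, 6.92 times at CT8 and 17.7 times at CT12. It was at 41.2 times at CT16, 65.0 times at CT20 and 84.5 times at CT24. In single livers the ratio ran from 5.15 in CT8 replicate 1 to 105 in CT20 replicate 1. The 2 livers of CT8 had the lowest ratios of all 14. A cosine fitted to the log2 ratio spanned 2.81 units and peaked at 20.7 h, and a two-sided permutation test over 100000 shuffles of the time labels gave p = 0.00151 (n = 14). The ratio at CT0 and at CT24, the same circadian phase, was 4.84 ± 0.26 and 6.40 ± 0.19 on the log2 scale (SD, n = 2 each), and this gap has no test of its own.

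**Figure D2:**
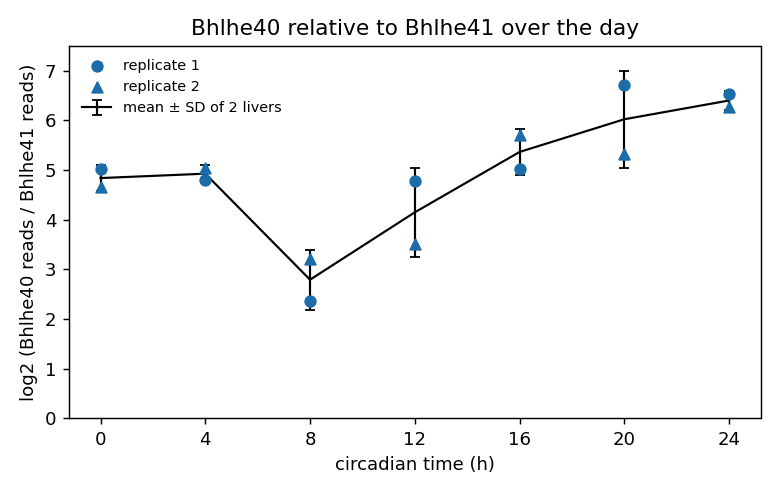
Log2 of Bhlhe40 reads over Bhlhe41 reads, TMM-scaled with 0.5 added to both (vertical axis) against circadian time in hours, with points for single livers and a line for the mean with its SD (n = 2). The ratio is lowest at CT8, where the mean is 6.92-fold, and highest at CT24, where it is 84.5-fold.

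The 2 Bhlhe41 transcripts differ by 129 bases (chr6:145863739-145863867) that belong to an exon of NM_001271768 and to none of NM_024469. These bases bring an early stop codon, so that the annotated CDS of NM_001271768 holds 131 codons and that of NM_024469 holds 410. Over the 14 libraries NM_001271768 had 1310 reads and NM_024469 had 1307. The difference of 3 reads came from CT8 replicate 2 and CT16 replicate 1, and nearly all reads are thus in sequence that both share. Of the reads of NM_024469, 1180 were in the CDS and 2 in the 3′UTR. For NM_001271768 the same reads divided into 240 in the CDS and 945 in the 3′UTR, since its 3′UTR begins inside what is CDS in the longer frame. The cosine fit of NM_024469 spanned 3.96 log2 units (adjusted p = 0.000564, edgeR), and the pair counts as 1 gene throughout.

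Id2 varied least between livers of the 3 ID genes. Its level ran from 30.8 CPM (CT8 replicate 2) to 52.2 CPM (CT4 replicate 1), with time-point means from 32.8 ± 0.0341 at CT12 to 47.7 ± 6.39 at CT4 (SD, n = 2 each). The livers of CT12, at 32.8 and 32.9 CPM, lay below all others but CT8 replicate 2. The fitted difference over the day was 0.28 on the log2 scale (adjusted p = 0.511, edgeR), or 0.28 ± 0.17 (SE) by least squares.

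Id3 stood at 17.5 and 43.6 CPM at CT0, 23.7 and 15.6 at CT4, 19.98 and 12.3 at CT8, and 6.61 and 17.9 at CT12. It was at 39.8 and 38.2 CPM at CT16, 15.97 and 17.1 at CT20, and 17.1 and 26.0 at CT24. The 2 livers of CT16 and 1 of CT0 were above all the rest, and those of CT16 lay inside the CT0 range of 17.5 to 43.6 CPM. The fitted cosine spanned 0.89 log2 units and did not pass the test (adjusted p = 0.425, edgeR), nor did a fit with a free level for each of the 7 times (adjusted p = 0.1, edgeR). The SD between the livers of a time point was 0.58 on the log2 scale, above that of 99.2% of the 12029 transcripts averaging 100 reads or more, whose median was 0.22. On the same scale the SD was 0.26 for Bhlhe40 (above 69.6% of them) and 0.25 for Id2 (above 62.4%). At CT16, where both livers were high in Id3, the summed sinusoidal endothelial markers had their lowest time-point mean, 134 CPM, against 188 CPM at CT0. The Kupffer (76.4 against 104 CPM at CT0), stellate (108 against 149) and cholangiocyte (11.2 against 19.9) markers were lowest at CT16 too. So were the erythroid markers, at 57.8 CPM against 93.8 at CT4, and the pancreatic acinar markers, at 2.83 CPM, while hepatocyte markers were lowest at CT4 and lymphocyte markers at CT20. The part of these lists in the levels of Id3, or of any member at CT16, was not tested.

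Id1 was low, with 88.6 reads per library on average and levels from 0.543 CPM (CT12 replicate 1) to 2.21 CPM (CT12 replicate 2). The lowest and the highest liver of the series were thus a pair of one time point. At CT4 the livers were at 0.992 and 2.14 CPM and at CT8 at 2.04 and 0.885 CPM, while at CT0 (1.60 and 1.59), CT20 (0.861 and 0.936) and CT24 (1.79 and 2.01) they lay close together. The fitted difference was 0.27 on the log2 scale (adjusted p = 0.912, edgeR), or 0.25 ± 0.36 (SE) by least squares. The SD between livers was 0.50 for Id1 and 0.51 for Bhlhe41, both with mean counts under 100, so no rank among those transcripts is given.

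CT12, subjective dusk, was compared with CT0 and CT24, subjective dawn, in a model with a level for each time. Of all transcripts tested 3.79% were called higher at dusk and 3.95% lower. Both DEC genes were among the higher and no ID gene was called. Bhlhe41 was higher by 3.17 ± 0.51 on the log2 scale (SE, n = 2 against 4), or 8.99-fold (adjusted p = 0.00066, edgeR), and Bhlhe40 by 1.51 ± 0.19, or 2.85-fold (adjusted p = 5.68e-05, edgeR). Without CT12 replicate 2, the Bhlhe41 difference was 2.29 (adjusted p = 0.0185, edgeR), and with CDS reads of the short frame alone it was 4.54 (adjusted p = 0.0201, edgeR). For both, each dusk liver was above all 4 dawn livers.

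Id3 had a dusk-to-dawn difference of -1.07 ± 0.37 on the log2 scale (adjusted p = 0.0941, edgeR), with CT12 replicate 2 (17.9 CPM) inside the dawn range of 17.1 to 43.6 CPM. Id2 had -0.31 ± 0.19 (adjusted p = 0.367, edgeR) with both dusk livers below the dawn range of 35.9 to 46.8 CPM, and Id1 had -0.36 ± 0.48 (adjusted p = 0.737, edgeR). Scaling by the total count in place of TMM shifts the median transcript by -0.58 in this comparison, with 0.786% of transcripts called higher and 20.5% lower. Bhlhe40 was then higher by 0.92 (adjusted p = 0.0238, edgeR) and Bhlhe41 by 2.54 (adjusted p = 0.00115, edgeR), and Id2 (-0.89, adjusted p = 0.0354, edgeR) and Id3 (-1.68, adjusted p = 0.00188, edgeR) then passed. Id3 also passed without CT12 replicate 2 (-1.94, adjusted p = 0.00996, edgeR) and without CT0 replicate 1 (-1.32, adjusted p = 0.034, edgeR). It was -0.52 without CT12 replicate 1 (adjusted p = 0.613, edgeR) and -0.67 without CT0 replicate 2 (adjusted p = 0.311, edgeR), so single livers decided both its size and its call.

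Between CT16 and CT4, in the early subjective night and the early subjective day, 2.47% of transcripts were called higher at CT16 and 1.03% lower. Bhlhe40 was called higher, by 2.77 ± 0.25 on the log2 scale, or 6.82-fold (adjusted p = 5.15e-06, edgeR, n = 2 against 2). Without CT16 replicate 2 it was higher by 2.86 (adjusted p = 3.39e-05, edgeR). Bhlhe41 had a difference of 2.37 ± 0.66, with both CT16 livers above both CT4 livers, at an adjusted p of 0.0594 by edgeR. It passed with DESeq2's Wald test (2.38, adjusted p = 0.00726), with scaling by the total count (2.61, adjusted p = 0.0285, edgeR) and with a minimum mean of 1 read (2.38, adjusted p = 0.0379, edgeR). With CDS reads alone it did not pass, at 1.64 on the short frame of NM_001271768 (adjusted p = 0.744, edgeR) and 2.14 on the longer frame of NM_024469 (adjusted p = 0.137, edgeR). Leaving out each of the 4 libraries in turn gave 1.86 to 3.07, with adjusted p-values of 0.0809 to 0.419 in edgeR. Id3 had 0.99 ± 0.41 (adjusted p = 0.272, edgeR) without overlap between the times. Id1 (0.12 ± 0.55, adjusted p = 0.969, edgeR) and Id2 (-0.19 ± 0.22, adjusted p = 0.834, edgeR) did not pass.

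CT24 and CT0 sample the same circadian phase a day apart. No transcript was called, 0.0% higher and 0.0% lower by edgeR, while 873 had an unadjusted p under 0.05, none of them a member, and DESeq2 called 2. Bhlhe41 showed the member difference of greatest size, -1.43 ± 0.71 on the log2 scale (adjusted p = 0.957, edgeR), with 26 and 33 reads in the CT0 livers and 8 and 11 in those of CT24. The other 4 genes lay between -0.51 ± 0.41 (Id3) and 0.25 ± 0.55 (Id1).

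**Figure D3:**
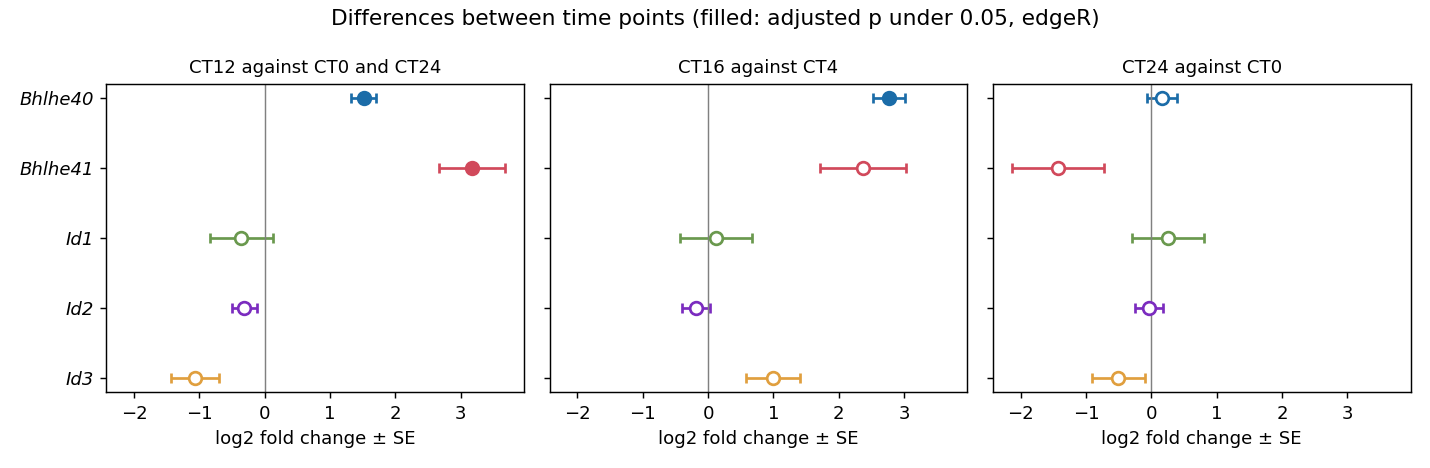
Log2 fold change with its SE (horizontal axis) for each gene in 3 comparisons of time points, with filled circles where the adjusted p was under 0.05 in edgeR. Bhlhe40 is filled at CT12 (1.51) and at CT16 (2.77), Bhlhe41 at CT12 (3.17), and no circle is filled for CT24 against CT0.

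Per length of CDS, the order of the members was Id2, Id3, Bhlhe40, Id1 and Bhlhe41. In CDS reads per kilobase and per 1000000 counts (RPKM, TMM-scaled) the means over 14 libraries were 97.2 ± 16.1 for Id2, 60.4 ± 30.0 for Id3, 18.0 ± 10.4 for Bhlhe40 and 3.17 ± 1.23 for Id1 (SD, n = 14). Bhlhe41 had 1.00 ± 1.37 on the longer frame of NM_024469 and 0.625 ± 0.826 on the short frame. Id2 was above 96.5% of the 17023 transcripts averaging 10 or more CDS reads, and Id3 above 94.8%.

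Neighbours in that order overlapped in part. Id2 was above Id3 in 12 of 14 libraries, with a mean log2 ratio of 0.83 ± 0.65 (SD), and the ratio was lowest in CT16 replicate 2, where Id2 had 0.814 times the Id3 level. Id3 was above Bhlhe40 in 13 of 14 libraries, the exception being CT12 replicate 1, where it had 0.633 times the Bhlhe40 level. Bhlhe40 was above Id1 in 13 of 14, the exception being CT4 replicate 2. Id1 was above Bhlhe41 (NM_024469) in 13 of 14, the exception being CT8 replicate 1, where the Id1 level was 0.838 times that of Bhlhe41. The mean of Bhlhe40 lay between those of Id3 and Id1 at each of the 7 times. At CT4 it was 4.59 ± 1.70 RPKM and Id1 was at 3.24 ± 1.70, and at CT16 it was 33.5 ± 2.51 RPKM and Id3 was at 106 ± 2.76 (SD, n = 2 each).

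**Figure D4:**
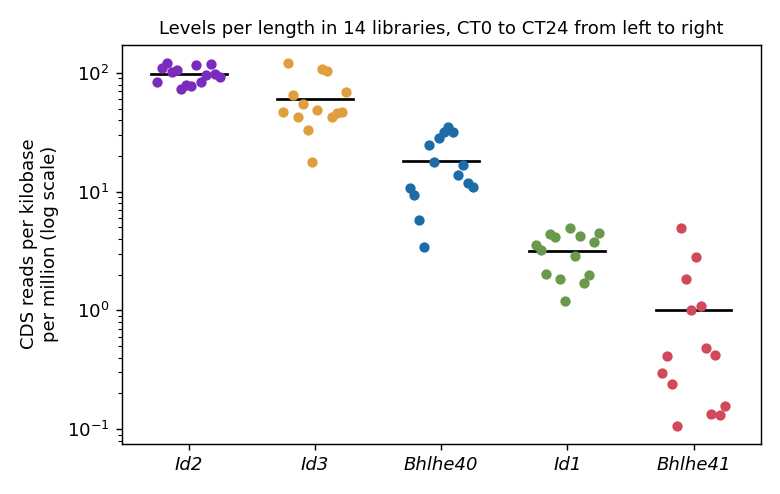
CDS level in RPKM on a log axis for each gene, with 14 points a gene ordered from CT0 to CT24 and a line at the mean (NM_024469 for Bhlhe41). Means fall from 97.2 for Id2 to 1.00 for Bhlhe41, and the points of Bhlhe40 and Bhlhe41 arch over the day.

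The DEC transcripts had larger shares of their reads before the start codon than the ID transcripts, as a description over pooled libraries with no test. Of the 5′UTR and CDS reads together, 9.69% were in the 5′UTR for Bhlhe40 (2067 against 19261 reads) and 9.58% for Bhlhe41 NM_024469 (125 against 1180). The share was 3.68% for Id1 (45 against 1178), 3.18% for Id2 (1093 against 33247) and 0.0552% for Id3 (10 against 18119). On the short frame of Bhlhe41 NM_001271768 the share was 34.2% (125 against 240 reads), as most of its reads lie past that frame. The median over 17023 transcripts was 3.79%.

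The 5′UTRs differ in length, with 284 bases in Bhlhe40, 153 in Bhlhe41, 90 in Id1, 82 in Id2 and 57 in Id3. Per base, the 5′UTR had 0.860 times the CDS density in Bhlhe41 NM_024469, 0.469 times in Bhlhe40, 0.193 times in Id1 and 0.163 times in Id2. On the short frame of Bhlhe41 NM_001271768 it had 1.37 times. The pooled values of Bhlhe41 rest mostly on CT8 and CT12, which gave 103 of its 125 5′UTR reads. Bhlhe41 and Id1 each had no 5′UTR read in 6 of 14 libraries and Id3 in 10. As means over libraries, with 0.5 added to both counts, the log2 density ratio was -0.61 ± 1.19 for Bhlhe41 NM_024469, -1.12 ± 0.42 for Bhlhe40, -2.77 ± 0.63 for Id2 and -2.96 ± 1.87 for Id1 (SD, n = 14), so Id1 and Id2 have no settled order. In Id3 the pooled density was 0.00368 times that of the CDS, higher than in 3.99% of 16838 transcripts, whose median was 0.351. For its density profiles the study placed each read at the base in the ribosomal A site, and whether the counts by region used that position is not given in the sources used here.

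**Figure D5:**
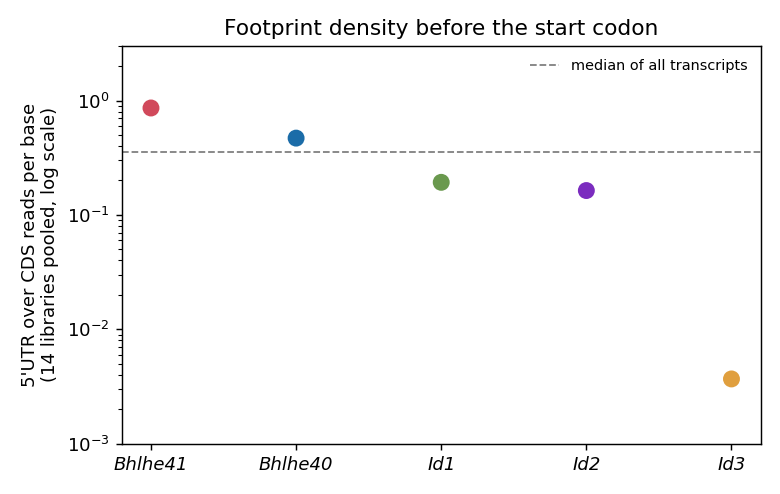
Reads per base of the 5′UTR over reads per base of the CDS (log axis), pooled over 14 libraries, for each gene (NM_024469 for Bhlhe41). A dashed line marks the median of all transcripts (0.351). Bhlhe41 (0.860) and Bhlhe40 (0.469) lie above the line and Id1, Id2 and Id3 below it, Id3 the lowest at 0.00368.

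Whether reads moved between 5′UTR and CDS over the day was tested with limma on their log2 ratio in the 7640 transcripts averaging 10 or more reads in both regions, of which 0.0% were called, while 377 had an unadjusted p under 0.05. Bhlhe40 and Id2 were the members with enough reads. The fitted cosine of Bhlhe40 spanned 0.85 log2 units with a peak at 6.17 h (adjusted p = 0.809, limma), and that of Id2 had 1.34 with a peak at 4.06 h (unadjusted p = 0.0202, adjusted p = 0.809, limma). Neither passed.

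The genes around the DEC repressors in the clock were largely rhythmic. All 3 E-box activators on the list were called by the edgeR cosine fit, namely Arntl (BMAL1; 3.93 log2 units from trough to peak, peak at 23.0 h, adjusted p = 6.26e-05), Npas2 (6.47, peak at 1.19 h, adjusted p = 2e-05) and Clock (0.91, peak at 0.309 h, adjusted p = 0.0407). Of 11 genes known to be driven through E-boxes, 10 were called, and Hlf was not (0.74, adjusted p = 0.0614). The median span from trough to peak was 3.15 log2 units for those 11 and 3.93 for the activators, against 0.44 over all 17299 transcripts tested. Nr1d1 (REV-ERBα, 5.56) peaked at 8.54 h, Dbp (6.63) at 11.2 h, Tef (2.56) at 12.9 h and Cry1 (2.30) at 20.96 h, so the DEC peaks at 10.6 and 14.1 h lay inside the range of this list. The other 6 (Per1, Per2, Per3, Cry2, Nr1d2 and Ciart) spanned from 0.95 log2 units in Cry2 to 6.11 in Ciart, with peaks from 11.005 to 16.5 h.

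For the partners and the BMP pathway of the ID proteins, 3 of 35 genes tested were called, or 8.57% beside the 11.3% of all transcripts, and nothing is read from that share. Values are the same span in log2 units. Of 3 E protein genes none passed in edgeR, with Tcf12 at 0.08 (adjusted p = 0.949), Tcf4 at 0.26 (adjusted p = 0.639) and Tcf3 at 0.79 (adjusted p = 0.272). Their median was 0.26. None of 10 ligand genes of the TGF-β superfamily, BMPs and relatives, was called, with Inhbe (an activin subunit) at 0.92 (adjusted p = 0.134), Bmp2, made by liver endothelium, at 0.46 (adjusted p = 0.413) and Gdf2 (BMP9) at 0.52 (adjusted p = 0.215), and their median was 0.50.

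Among receptors and co-receptors 1 of 10 tested was called, Hjv (hemojuvelin, the BMP co-receptor of the iron pathway; 0.91, peak at 23.9 h, adjusted p = 0.0199, edgeR). Tfr2 (0.08, adjusted p = 0.853) and Eng (0.30, adjusted p = 0.37), with more reads, were not. Of 6 SMAD genes 1 was called, Smad9 (SMAD8; 1.65, peak at 13.2 h, adjusted p = 0.00861, edgeR). Smad4, the shared partner of the others, stood at 0.25 (adjusted p = 0.515), Smad1 at 0.18 (adjusted p = 0.815) and Smad2 at 0.10 (adjusted p = 0.947). The medians of these lists were 0.32 and 0.21.

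Of 6 other BMP target genes 1 was called, Hamp (hepcidin, the iron hormone; 1.41, peak at 14.8 h, adjusted p = 0.00239, edgeR). Hamp2 (1.11, adjusted p = 0.13) and Atoh8 (0.22, adjusted p = 0.864) were not, and the list's median was 0.89. Of 8 further helix-loop-helix repressors 4 averaged enough reads, with a median of 0.88, and Hes6 was called (0.72, peak at 19.01 h, adjusted p = 0.00297, edgeR) while Hes1 (0.40, adjusted p = 0.354) and Heyl (1.05, adjusted p = 0.389) were not. Id4, the remaining ID gene, which was added after its value was seen, had 16.6 reads per library (2.01, adjusted p = 0.161).

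The genes whose levels ran most like those of each member were read off as the 3 highest Pearson correlations of log2 CPM over the 14 libraries, among 8144 genes averaging 100 reads or more. All points share their libraries and their scaling, and the values are a description. For Bhlhe40 they were Usp2 (a ubiquitin-specific protease, r = 0.966), Noct (nocturnin, r = 0.946) and Tef (a PAR bZIP factor, r = 0.933). For Bhlhe41 they were Dbp (the PAR bZIP factor named above, r = 0.936), Npc1 (a lysosomal cholesterol transporter, r = 0.935) and Klf3 (a Krüppel-like factor, r = 0.890).

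For Id3 the nearest genes were Foxa2 (r = 0.913) and Foxa1 (r = 0.904), forkhead factors of hepatocytes, and Tradd (r = 0.872), an adaptor of TNF receptor 1. None of these 3 was called rhythmic. For Id1 they were Dstyk (r = 0.897), Pygo2 (r = 0.826) and Pomt2 (r = 0.811), and for Id2 Mrpl38 (a mitochondrial ribosomal protein, r = 0.859), Ttc36 (r = 0.835) and Emc9 (r = 0.833).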

How the data were processed

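Ribosome profiling reads of 14 mouse liver libraries were used. For every RefSeq transcript the authors deposited the length of the 5′UTR, of the CDS and of the 3′UTR and, beside each, a raw count of reads with no normalization. The submitters' processing notes name mm10, FastQC, Bowtie2 2.1.0.0 and SAMtools 0.1.19.0. The rule for counting reads that fit more than 1 transcript is not given in the sources used here. Samples were grouped by the time in their names. One pair is named CT24 but carries CT00 in a label field, and the name was used.

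The 3 counts of a transcript were summed. The quasi-likelihood test of edgeR 4.0.16 (R 4.3.3, TMM scaling) was run on transcripts whose mean count reached 10, with Benjamini-Hochberg adjustment over all of them. limma 3.58.1 tested the log2 of the 5′UTR count over the CDS count, 0.5 added to both, and DESeq2 1.42.0 served as an alternative. JTK_CYCLE was written anew in Python 3.11.15. The standard error of a contrast was taken as the difference over the square root of F. The edgeR cosine fit, the limma ratio test, JTK_CYCLE and the permutation test were tried on simulated data. Of the contrasts, only the calls of unchanged transcripts at CT16 against CT4 were tried in this way. The transcript with the highest mean count stood for a gene.

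Named genes were all members, the 3 genes most like each, and lists of clock, E protein, BMP and marker genes. From each list came the 3 of highest count and up to 5 past the threshold. The clock list held 1 more gene that is not reported here and is in no count. The members and lists were chosen with earlier results of these data known. Symbols came from the RefSeq table of GRCm38.p6, which matched 27840 of 28167 transcripts. Other scalings, count minimums, tests and left-out libraries were tried as alternatives. With 2 mice a time point, an SD rests on 2 values.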

Additional observations from a re-analysis of the deposited data

How the results depend on the processing

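The rhythm calls of Bhlhe40 and Bhlhe41 in edgeR and DESeq2 and the lack of a call for Id1, Id2 and Id3 held under every other scaling, count minimum that tested them, read region and left-out library that was run. Without each library in turn, the peak-to-trough difference ran from 1.92 to 2.26 on the log2 scale for Bhlhe40 and from 3.34 to 4.32 for Bhlhe41, from 0.11 to 0.61 for Id1, from 0.21 to 0.38 for Id2 and from 0.73 to 1.118 for Id3, and that of the Bhlhe40 to Bhlhe41 ratio from 2.35 to 3.11. Total-count scaling gave 0.59 for Id1, 0.71 for Id2 and 1.39 for Id3. A minimum mean of 100 reads leaves out Bhlhe41 and Id1, so that 1 member gene was called rhythmic, beside 2009 of 12029 transcripts. At CT12 it was 1 as well, where the share of all transcripts is not given. JTK_CYCLE on CPM called 1 member, beside 22.2% of all transcripts, with Bhlhe41 at a p of 0.126 adjusted for the phases tried. With TMM it called Bhlhe41 too, and the share of all transcripts is not given for that setting, so nothing is read from the added call. At CT12 against CT0 and CT24, total-count scaling called 4 members in place of 2, beside 0.786% of all transcripts higher and 20.5% lower. With single libraries left out, the Id3 difference there ran from -1.94 to -0.52. At CT16 against CT4, total-count scaling, a minimum of 1 read and DESeq2's Wald test each called 2 in place of 1, with 2.02%, 2.23% and 3.89% of all transcripts tested called higher. The cause was not tested.

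Uncalled differences changed sign under total-count scaling for Id2 at CT16 against CT4 (0.053) and for Bhlhe40 (-0.15) and Id1 (-0.061) at CT24 against CT0, and with CDS reads of the short frame for Bhlhe41 at CT24 against CT0 (0.72). In the longer frame of NM_024469, an alternative chosen after seeing the data, this was -1.32, the rhythm of Bhlhe41 spanned 3.87 (5.05 in the short frame), the ratio of Bhlhe40 to Bhlhe41 spanned 2.81 (3.98) and no call changed. That scaling shifts the median transcript by 0.22 and -0.31 in those comparisons. With single libraries left out, uncalled differences ran from -1.67 to 0.34 for Id1 at CT12, from -0.34 to 0.77 for Id1 and from -0.45 to 0.040 for Id2 at CT16, and from -0.23 to 0.17 for Id2 and from -1.03 to 0.30 for Id3 at CT24. Over all regions and the transcript length the levels were 32.2 for Id2, 23.3 for Id3, 7.94 for Bhlhe40, 1.60 for Id1 and 0.225 for Bhlhe41 NM_001271768, in the same order. Deviations of same-numbered livers at different times correlated weakly over the transcripts tested (from -0.11 to 0.27 over 21 pairs of times, median 0.031, 3 above 0.1). The main fits did not pair livers by number, and whether the numbers mark a batch was not tested. With a replicate block the cosine fit called 1916 transcripts in place of 1947, with Bhlhe40 at 2.17 and Bhlhe41 at 3.96, and the block changed no member's call. Precision is limited by 2 livers a time point and, for Id1 and Bhlhe41, by counts under 100 a library.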
